A study of Mus musculus with 6 samples.

Results

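Cholesterol is made from acetyl-CoA through the mevalonate pathway, squalene and a series of sterol intermediates, or taken up in lipoproteins and freed in lysosomes. The SREBP transcription factors are held in the endoplasmic reticulum by SCAP and INSIG proteins while sterols are plentiful, and when sterols run low they are released and raise the transcription of the synthesis and uptake genes together. Oxysterols act in the other direction through the LXR receptors, which raise the cholesterol exporters. Every dividing cell draws on the pathway for its membranes, so in a tumor sample both stromal and malignant cells can contribute its transcripts.

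A group of 34 genes of cholesterol synthesis, uptake, export and SREBP-driven fatty acid synthesis was examined in RNA-seq of stromal cells from mouse melanomas. Its members were chosen by gene name from a table of 53801 genes. All 34 passed the expression filter, as did 15133 genes of the table. By role, 5 are SREBP regulators, 8 are enzymes from acetyl-CoA to squalene, 10 are enzymes from squalene to cholesterol, 7 act in uptake, trafficking, storage or efflux, and 4 make fatty acids.

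The cells were sorted as PDPN+PDGFRα+ from subcutaneous MO5 tumors, which are B16 melanoma cells that carry the ovalbumin gene, after hematopoietic and endothelial cells had been gated out. DTR mice were transgenic animals (ADAM12-DTR) in which Adam12 sequences on a bacterial artificial chromosome drive the receptor for diphtheria toxin, so that the toxin kills cells using that promoter. Ctrl mice were sex-matched littermates without the transgene (DTR-), and both groups were young adults on the C57Bl/6 background and received diphtheria toxin. There were 3 libraries per group. The study's methods give n as mice unless stated otherwise, but the labels do not tie each library to an animal, so p-values measure the spread between these libraries.

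Totals ran from 22339635 counts in DTR 3 to 34271929 in DTR 1, and 3 counts correspond to 0.0873 to 0.132 CPM (a gene's count scaled to a common library total after TMM correction). Adam12, the gene whose promoter drives the receptor, measured 216, 181 and 175 CPM in Ctrl and 165, 151 and 112 CPM in DTR, an edgeR adjusted p of 0.602. The sorting label was only partly borne out by markers. Summed over 10 pigment cell genes, levels were 15600 to 19500 CPM, above the 5160 to 14100 CPM summed over 8 fibroblast genes. The fibroblast sum was 13600 CPM in Ctrl 1, 10800 in DTR 1 and 14100 in DTR 3, against at most 5560 in the other 3 libraries. Transcripts of both kinds of cell were thus present in every library, and in such bulk samples fewer cells of a type and less RNA per cell cannot be told apart.

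To find which sterol genes the libraries used most, levels were compared per kilobase of annotated exon, averaged over the 6 libraries. Scd2, a desaturase that makes monounsaturated fatty acids, led the group at 194 CPM per kilobase. Acly, which supplies cytosolic acetyl-CoA, followed at 57.7, and Fasn, the fatty acid synthase, at 54.9. Insig1, the SREBP retention protein, reached 47.7 CPM per kilobase and Cyp51, the lanosterol demethylase, 36.4. Lrp1, a large endocytic receptor of lipoproteins and protease complexes, reached 35.6 CPM per kilobase on average, but from 22.6 in DTR 2 to 59.3 in DTR 3, where it passed Acly and Fasn. Scd2 was first and Fdps last in each of the 6 libraries, while the places between shifted with the library. Fdps, which makes farnesyl diphosphate, stood at 0.186 CPM per kilobase, with 11 to 31 counts in a library. Of the 50-base words in the protein-coding transcripts of Fdps, 64.1% also occur in transcripts of other genes, among them Gm43738, Gm3571 and Gm5873, so its counts are uncertain. Shares were 40.7% for Acat2, mainly with Acat3 and Tcp1, 30.7% for Fdft1 and 28.6% for Idi1. Words were matched on either strand, while the authors counted reads by strand. These shares are therefore upper limits on same-strand sharing, and how far they affect the counts was not tested. Exons overlapped those of another gene on the same strand over 26.7% of their length for Fdps, and over 0.0% for Acat2, Fdft1 and Idi1.

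**Figure D1:**
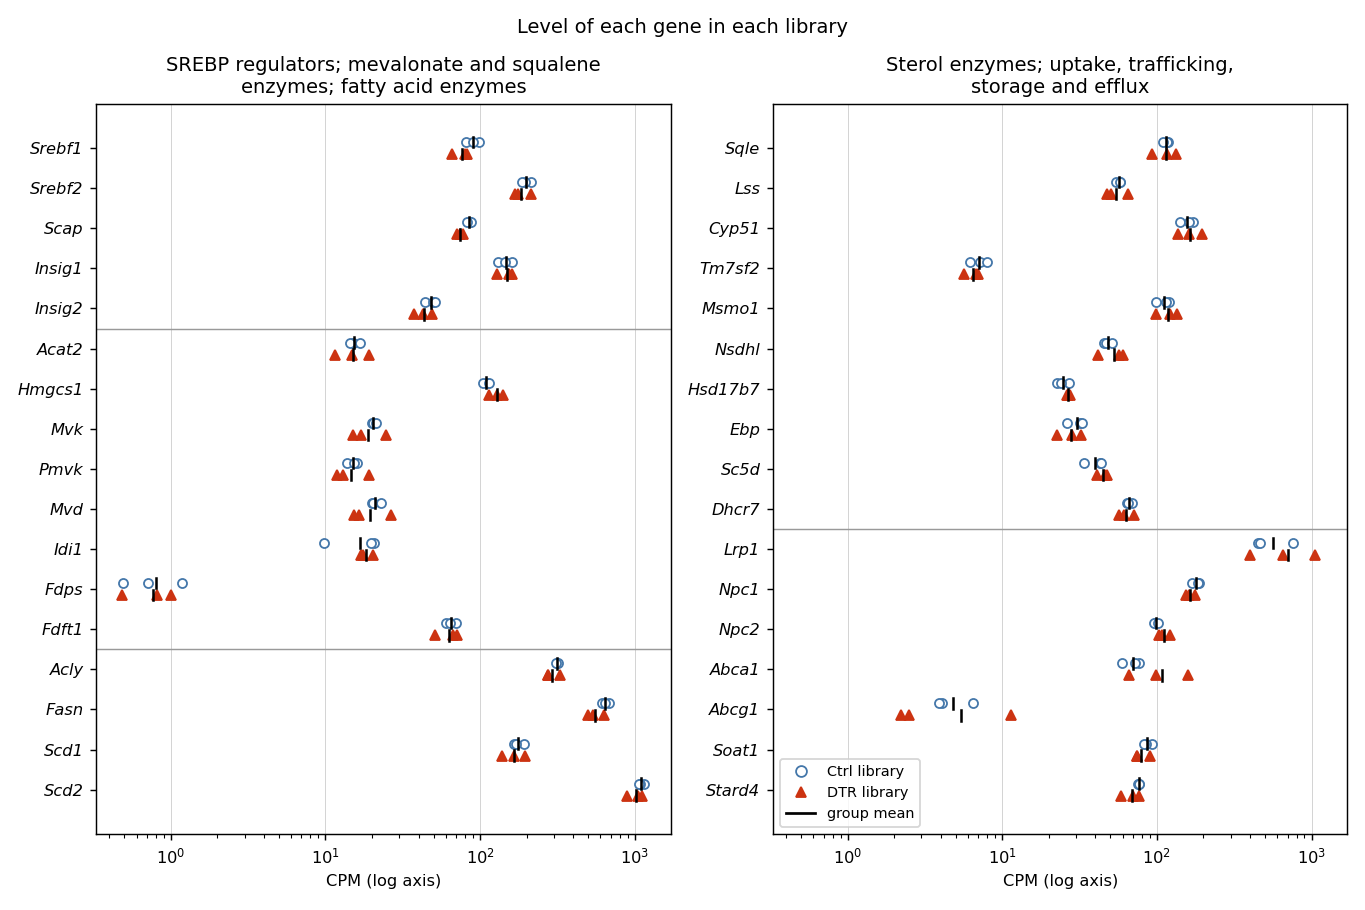
Level of each of the 34 genes in each library, in CPM on a log axis; open circles are the 3 Ctrl libraries, triangles the 3 DTR libraries, and black ticks the group means. The circles and triangles of most genes overlap, and Scap, Hmgcs1 and Npc2 are the 3 genes whose groups do not with this TMM scaling, 1 lower (2.94%) and 2 higher (5.88%) in DTR, beside 8.18% and 6.32% of all genes.

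To ask whether the sterol program differed after depletion, each gene was tested between DTR and Ctrl with the quasi-likelihood method of edgeR, and p-values were adjusted by Benjamini-Hochberg across the 15133 genes kept. No gene of the group passed an adjusted p of 0.05, and the lowest adjusted p was 0.623. Across all genes the share that passed was 0.0%. At an unadjusted p under 0.05 there were 2 members, 1 lower and 1 higher, against 7.92% of all genes, 4.11% lower and 3.81% higher. DESeq2 called 0 of the 34 at an adjusted p under 0.05 and 1 at an unadjusted p under 0.05 (2.94%, against 6.42% of all genes), while it called 31 genes in all, 0.152% of those it tested.

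The log2 fold changes of DTR over Ctrl were small. Of the 34, 22 were below 0 and 12 above, with a median of −0.05, beside −0.0029 over all genes tested. They ran from −0.24 for Srebf1 to 0.63 for Abca1. Their median standard error was 0.129, against 0.192 over all genes, which were not matched to the members for level. For 27 of the 34 the 95% interval lay wholly within a 1.5-fold difference either way, and for 30 within a 2-fold difference. The intervals of Fdps, Lrp1, Abca1 and Abcg1 were wider. Leaving out 1 library at a time changed the direction of 16 members, among them Lrp1, Cyp51, Sqle and Lss, while 12 stayed below 0 and 6 above 0 under each of the 14 alternatives run.

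**Figure D2:**
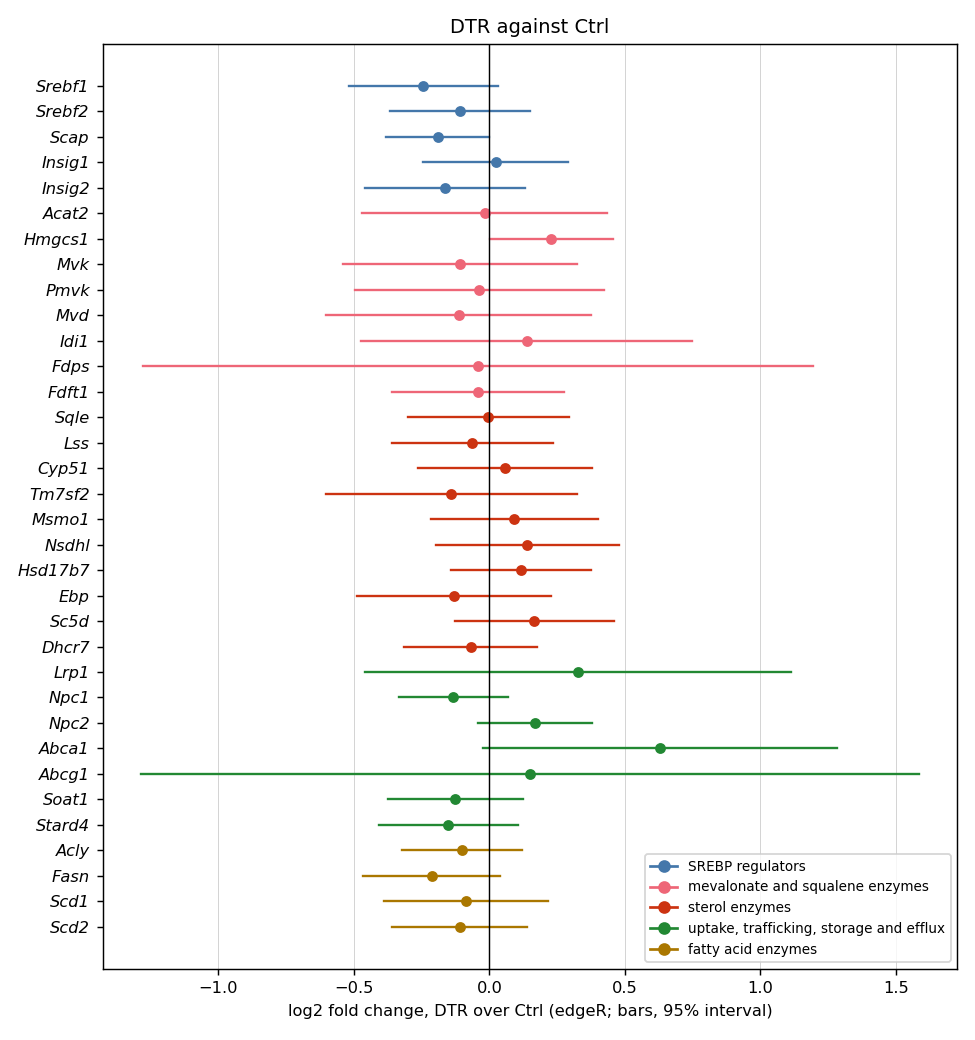
Log2 fold change of DTR over Ctrl for each gene (points) with its 95% interval from edgeR (lines), colored by role. Of the 34 intervals, 32 cross 0; that of Scap ends at −0.0028 and that of Hmgcs1 starts at 0.0011.

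Among the regulators, 4 of 5 had a log2 fold change below 0, with a median of −0.16. Scap (chr9:110333288-110384950, GRCm38) encodes the sterol sensor that escorts SREBPs to the Golgi. It measured 86.0, 86.8 and 82.7 CPM in Ctrl and 74.7, 71.2 and 77.9 CPM in DTR. All DTR libraries lay below all Ctrl libraries, as for 8.18% of all genes. The log2 fold change of Scap was −0.19 (SE 0.0817), with an edgeR adjusted p of 0.623.

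Srebf1 (chr11:60199089-60222581) encodes SREBP-1, which acts mainly on fatty acid genes. Its levels were 98.3, 81.3 and 90.7 CPM in Ctrl and 82.6, 65.5 and 80.1 CPM in DTR. DTR 1 overlapped the lowest Ctrl library. Its log2 fold change, −0.24 (SE 0.119), was the lowest of the 34. Srebf2, which encodes the factor that acts mainly on cholesterol genes, had a log2 fold change of −0.11, and Insig2, the second retention protein, one of −0.16. Insig1 is itself a target of SREBPs and serves as a readout of their activity. It stood at 162, 131 and 146 CPM in Ctrl and 161, 155 and 129 CPM in DTR, with a log2 fold change of 0.02 (SE 0.116). Its 2 groups covered nearly the same range.

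From acetyl-CoA to squalene, 6 of 8 enzymes had a log2 fold change below 0 and the median was −0.04. Hmgcs1 (chr13:119690379-119708260) encodes the synthase that makes HMG-CoA from acetyl-CoA and acetoacetyl-CoA. It measured 111, 104 and 114 CPM in Ctrl and 142, 128 and 115 CPM in DTR. The DTR libraries were all above the Ctrl libraries, as for 6.32% of all genes, though DTR 3 lay just above Ctrl 3. Scaled by library size alone, Hmgcs1 was at 117.4 CPM in Ctrl 3 and 116.6 in DTR 3 and its groups overlapped, as did those of Npc2, while those of Hsd17b7 no longer did. With that scaling 6.35% of all genes had DTR wholly below Ctrl and 7.18% wholly above. The log2 fold change was 0.23 (SE 0.0987), with an edgeR adjusted p of 0.629. Mvd, the decarboxylase that ends the mevalonate steps, was lowest in its group at −0.11 (SE 0.211). Its Ctrl libraries were tight, at 19.9, 20.4 and 22.8 CPM. Its DTR libraries spread to both sides, at 26.4, 16.5 and 15.4 CPM. The kinases Mvk and Pmvk had log2 fold changes of −0.11 and −0.04, the isomerase Idi1 one of 0.14, the thiolase Acat2 one of −0.02, and Fdps and the squalene synthase Fdft1 one of −0.04 each.

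From squalene to cholesterol, 5 of 10 enzymes were on each side of 0, with a median log2 fold change of 0.03 and no member at an unadjusted p under 0.05. Tm7sf2, a sterol reductase, had the lowest, −0.14 (SE 0.201), with 6.21, 7.12 and 8.01 CPM in Ctrl and 6.81, 5.64 and 6.92 CPM in DTR. Its exons overlap those of another gene on the same strand over 12.1% of their length. The highest, 0.17 (SE 0.127), was that of the desaturase Sc5d, with 42.5, 33.9 and 43.6 CPM in Ctrl and 47.7, 46.1 and 40.9 CPM in DTR. Groups overlapped for both. Sqle, the epoxidase at the entry to the sterol ring, differed by −0.0047 on the log2 scale, and its 95% interval ran from −0.30 to 0.29. The cyclase Lss, the isomerase Ebp and the last-step reductase Dhcr7 had log2 fold changes of −0.06, −0.13 and −0.07. Cyp51, Msmo1, Nsdhl and Hsd17b7, which together remove methyl groups from the ring, had 0.06, 0.09, 0.14 and 0.12.

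Among the 7 genes of uptake, trafficking, storage and efflux, 4 had a log2 fold change above 0 and the median was 0.15. Abca1 (chr4:53030787-53159895), the LXR target that exports cholesterol to lipid-poor apolipoprotein, had the highest log2 fold change of the 34, 0.63 (SE 0.283), with an edgeR adjusted p of 0.630. It measured 59.8, 76.5 and 72.2 CPM in Ctrl and 65.5, 99.0 and 158 CPM in DTR. Its groups overlapped, since DTR 1 lay within the Ctrl range. Without DTR 3 the log2 fold change of Abca1 was 0.24, and without DTR 1 it was 0.90.

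Npc2 (chr12:84754562-84773152), the soluble protein that hands cholesterol over inside lysosomes, was the 1 gene of this role whose groups did not overlap, higher in DTR, against 6.32% of all genes. It measured 97.8, 95.7 and 102 CPM in Ctrl and 103, 107 and 122 CPM in DTR, a log2 fold change of 0.17 (SE 0.0907). Its membrane partner Npc1 went the other way, with a log2 fold change of −0.13. Stard4, a carrier of sterols through the cytosol, was lowest in this role at −0.15 (SE 0.111). Its levels were 74.9, 76.5 and 77.1 CPM in Ctrl and 77.0, 69.8 and 58.8 CPM in DTR, so DTR 1 sat among the Ctrl libraries. Soat1, which esterifies cholesterol for storage, had −0.13.

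Lrp1 and Abcg1, a second LXR-driven exporter, varied most between libraries of 1 group. Lrp1 (chr10:127538161-127621148) measured 760, 453 and 465 CPM in Ctrl and 654, 401 and 1050 CPM in DTR. Its 3 highest libraries, DTR 3, Ctrl 1 and DTR 1, were the 3 with the highest fibroblast marker sums. The log2 fold change of Lrp1, 0.33 (SE 0.341), was −0.09 without DTR 3. Abcg1 measured 4.08, 6.49 and 3.87 CPM in Ctrl and 2.50, 2.22 and 11.4 CPM in DTR, a log2 fold change of 0.15 (SE 0.621), and −1.02 without DTR 3. The part of the fibroblast content in these values was not tested.

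**Figure D3:**
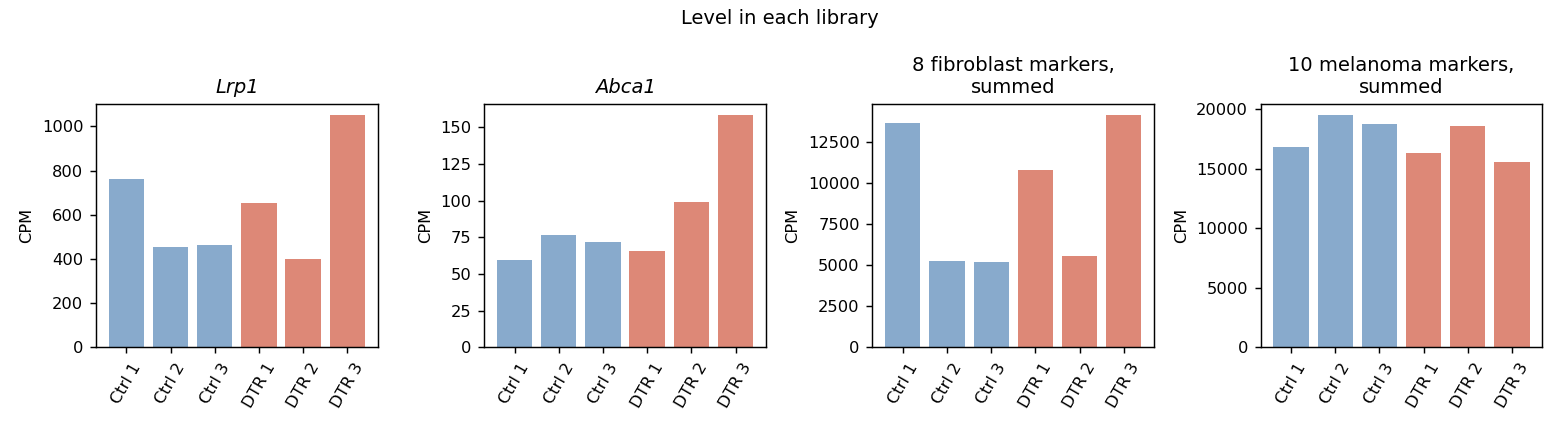
Level in each library, in CPM, of Lrp1, Abca1, the sum of 8 fibroblast marker genes and the sum of 10 pigment cell marker genes; blue bars are Ctrl and red bars DTR. Lrp1 and the fibroblast sum are highest in Ctrl 1, DTR 1 and DTR 3, while Abca1 is highest in DTR 3 and lowest in Ctrl 1.

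The 4 fatty acid genes all had a log2 fold change below 0, with a median of −0.11. Fasn, at −0.21 (SE 0.110), was lowest, with 618, 680 and 638 CPM in Ctrl and 637, 534 and 499 CPM in DTR. DTR 1 again lay within the Ctrl range and the other DTR libraries below it. Scd1, a stearoyl-CoA desaturase, was highest of the 4 at −0.09 (SE 0.131), with 194, 167 and 170 CPM in Ctrl and 195, 166 and 139 CPM in DTR. Acly and Scd2 had log2 fold changes of −0.10 and −0.11. All 4 genes had their lowest level in DTR 3, which was the lowest library for 23.4% of all genes with a count in every library.

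The group means hide a pattern among the libraries. Of the 18 synthesis enzymes, from acetyl-CoA to cholesterol, 16 were higher in DTR 1 than in DTR 3 (88.9%, against 50.3% of the 14881 genes with a count in every library), the exceptions being Tm7sf2 and Hsd17b7. DTR 1 was the highest of the 6 libraries for 13 of the 18 (72.2%), against 12.8% of those genes. DTR 3 was the lowest for 12 of the 18 (66.7%), against 23.4% of those genes. Both held for 10 enzymes (55.6%, against 4.44%), namely Acat2, Mvk, Mvd, Fdft1, Sqle, Lss, Cyp51, Msmo1, Nsdhl and Dhcr7. The fatty acid genes had the same order of these 2 libraries, with 4 of 4 higher in DTR 1 than in DTR 3 and Acly and Scd1 at both extremes.

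The spread this gave was modest. Taking each gene's log2 CPM minus its mean over 6 libraries, the enzymes averaged 0.23 in DTR 1 and −0.21 in DTR 3, and from −0.03 to 0.03 in the other 4 libraries. The median log2 ratio of DTR 1 to DTR 3 was 0.493 over the enzymes, beside 0.00289 over all genes. For single enzymes it meant, for example, 194 CPM of Cyp51 in DTR 1 and 136 in DTR 3, with 141 to 171 in Ctrl, and 132 CPM of Sqle in DTR 1 and 93.2 in DTR 3, with 109 to 118 in Ctrl. Nsdhl, a sterol dehydrogenase, ranged from 60.1 CPM in DTR 1 to 41.7 in DTR 3, with 45.5 to 51.4 in Ctrl. These 3 were taken from the enzymes highest in DTR 1 and lowest in DTR 3, so Ctrl lay between by that choice.

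The other 8 enzymes departed from it. Hmgcs1 and Sc5d were highest in DTR 1 but lowest in Ctrl 2, and Pmvk was highest in DTR 1 but lowest in DTR 2. Ebp and Fdps were lowest in DTR 3 but highest in Ctrl 3 and Ctrl 1. Tm7sf2 was highest in Ctrl 3 and lowest in DTR 2, and Hsd17b7 was highest in DTR 3. Idi1 was set apart by a low level in Ctrl 1 alone, at 9.76 CPM against 17.1 to 20.5 in the other libraries. Of the 7 uptake and efflux genes, 4 (Lrp1, Npc2, Abca1 and Abcg1) were highest in DTR 3, while Stard4 was lowest there like most enzymes. The deviations of the 7 genes in DTR 3 had a mean of 0.40, to which Abcg1 contributed most, and a median of 0.22. DTR 3 was the highest library for 20.8% of all genes. DTR 1 and DTR 3 also differed in depth, being the deepest and the shallowest library, and both were among the 3 libraries with high fibroblast sums. Summed over 7 endothelial genes, levels were 79.0 CPM in DTR 3 and 11.6 to 27.3 in the other libraries, but the list did not move as one. Tek had 1426 counts and Kdr 272 in DTR 3, both their highest (62.9 CPM for Tek), Pecam1 was at 4.01 CPM in DTR 3 and 8.03 in DTR 1, Cdh5 had 0 counts in DTR 3, and Cldn5, Emcn and Egfl7 had 3 counts or fewer in every library. The part of depth and of Tek-expressing cells in the pattern was not tested. The pattern was found in these data, and no test was made of it.

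**Figure D4:**
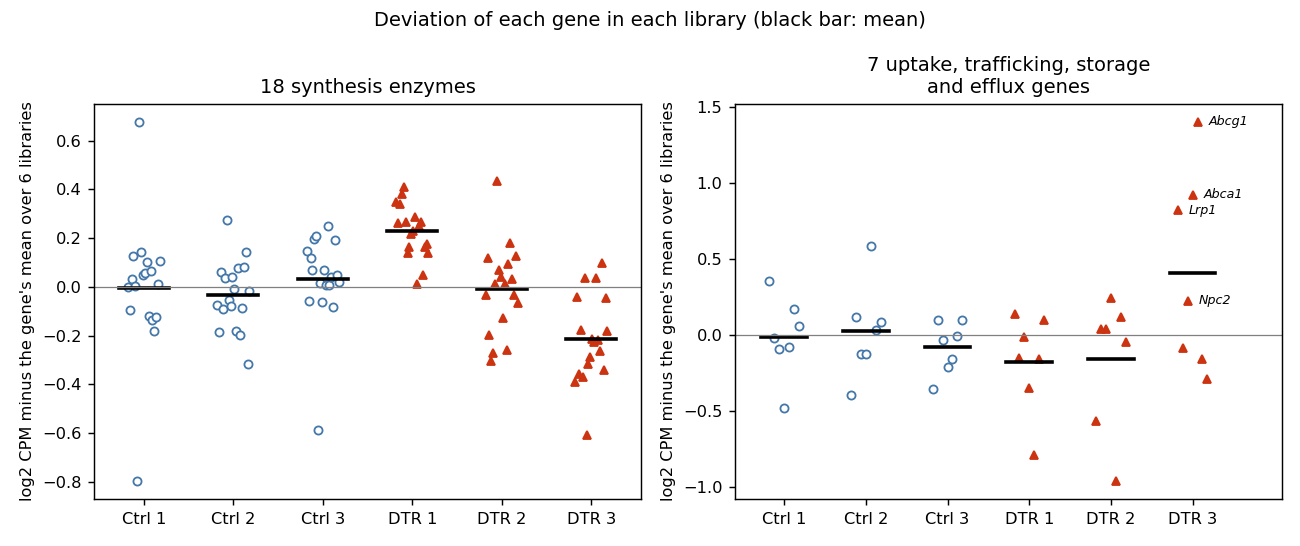
Deviation of each gene's log2 CPM from its mean over the 6 libraries, for the 18 synthesis enzymes and for the 7 genes of uptake, trafficking, storage and efflux; circles are Ctrl, triangles DTR, and black bars the mean over genes. The enzyme mean is 0.23 in DTR 1 and −0.21 in DTR 3, and the mean of the 7 other genes is 0.40 in DTR 3.

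The comparison of DTR with Ctrl moved with the library left out. Without DTR 1, 25 of 34 log2 fold changes were below 0, beside 7565 of 15665 over all genes. The median of the members was −0.12, beside 0.0126 over all genes. DTR was wholly below Ctrl for 13 members (38.2%), against 16.0% of all genes compared the same way. It was wholly above for 3 (8.82%), against 12.6%. Without DTR 3, 14 of 34 were below 0, beside 7898 of 15785 over all genes. The median of the members was then 0.03, beside −0.0002 over all genes. DTR was wholly below Ctrl for 2 members (5.88%), against 11.8% of all genes, and wholly above for 5 (14.7%), against 11.4%. At an unadjusted p under 0.05 there were 4 members without DTR 1 (Abca1, Fasn, Mvd and Mvk; 11.8% against 10.2% of all genes) and 4 without DTR 3 (Abcg1, Hmgcs1, Nsdhl and Scap; 11.8% against 6.07%). Leaving out any of the other 4 libraries gave 0 such members, beside 5.21% to 8.35% of all genes.

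The sequence just before the gene start was read next, as a description of the promoters of the group. RefSeq promoters on GRCm38.p6 matched 26 of the 34 genes, 15 of them synthesis enzymes, and the 250 bases before each start were searched on both strands. The box CCAAT, bound by NF-Y, a factor that works beside SREBP at sterol genes, was present before at least 1 start of 21 of the 26 members and of 14 of the 15 enzymes, and before 37.5% of all 27025 genes with an entry. With the box in nearly every enzyme searched, its presence could not separate those with the library pattern from the rest. Of the 10 enzymes highest in DTR 1 and lowest in DTR 3, 8 had an entry and 7 of these had the box, Acat2 being without it, and of the other 8 enzymes, 7 had an entry and 7 the box. Of the 4 members with an entry that were highest in DTR 3, Npc2 and Hsd17b7 had the box and Lrp1 and Abca1 did not. In all, 34 of 42 matches lay within 150 bases of the start. The sterol regulatory element core TCACNCCAC was found before 1 member, Hmgcs1, and before 1.22% of all genes. The E-box form TCACGTGA was found before 0 members and 0.907% of genes. For both motifs only exact matches were counted, so variant forms are not covered. A match is a description of letters and not a bound site.

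**Figure D5:**
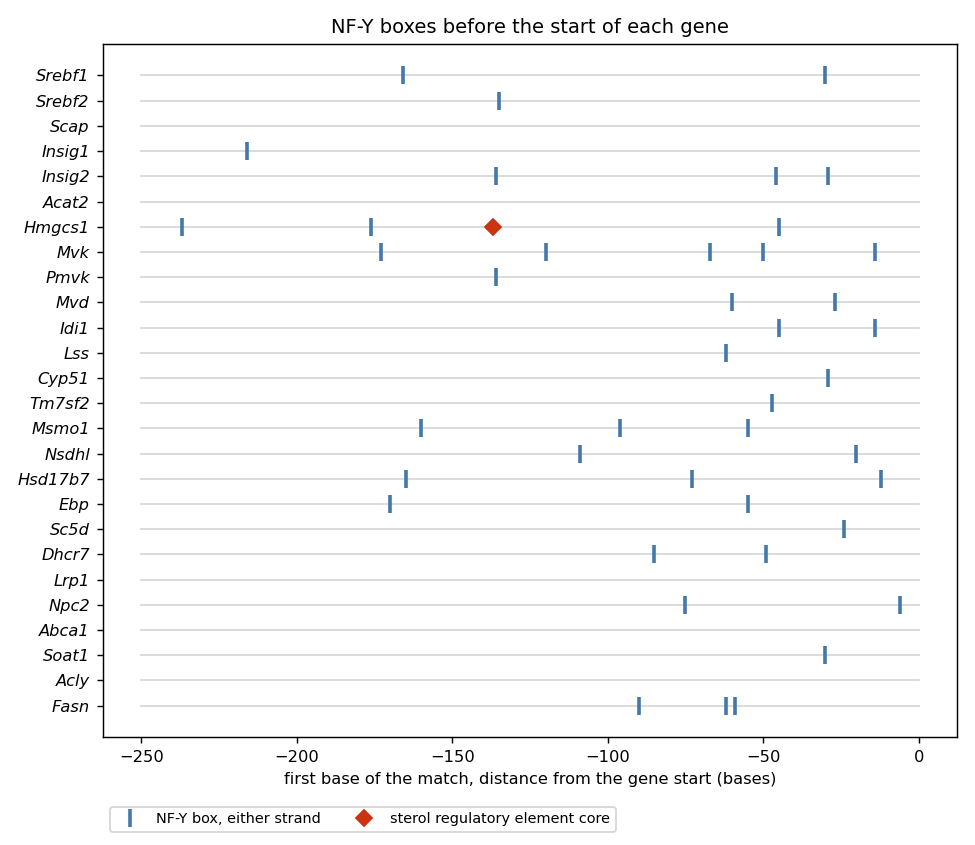
Positions of the NF-Y box (bars) and of the sterol regulatory element core (diamond) in the 250 bases before the start of the 26 members with a promoter entry; gray lines show the windows searched, drawn over one another where a gene has several starts. The synthesis enzymes from Hmgcs1 to Dhcr7 each have at least 1 box, as do Npc2 and Soat1, while Scap, Acat2, Lrp1, Abca1 and Acly have none.

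The windows of 8 genes are shown, 5′ to 3′ on the strand of the gene and ending at the base before the start. Hmgcs1 holds the sterol regulatory element core. Cyp51, Msmo1, Nsdhl and Acat2 were highest in DTR 1 and lowest in DTR 3, Acat2 being the 1 synthesis enzyme searched without a box. Npc2, Lrp1 and Abca1 were highest in DTR 3, Npc2 with the box and the other 2 without. Capitals mark CCAAT, its reverse complement ATTGG and the sterol regulatory element core, which in Hmgcs1 reads TCACCCCAC and starts at position −137.
Hmgcs1, chr13:119690101-119690350, plus strand: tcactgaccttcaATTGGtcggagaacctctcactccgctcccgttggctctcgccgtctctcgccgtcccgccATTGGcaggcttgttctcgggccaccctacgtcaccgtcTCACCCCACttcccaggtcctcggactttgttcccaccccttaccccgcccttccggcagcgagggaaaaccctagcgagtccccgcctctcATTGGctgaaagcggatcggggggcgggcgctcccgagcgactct
Cyp51, chr5:4104698-4104947, minus strand: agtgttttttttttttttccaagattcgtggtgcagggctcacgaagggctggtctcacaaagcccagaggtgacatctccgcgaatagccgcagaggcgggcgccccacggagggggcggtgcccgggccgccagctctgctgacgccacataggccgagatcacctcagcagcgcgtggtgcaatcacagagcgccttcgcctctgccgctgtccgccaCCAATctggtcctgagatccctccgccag
Msmo1, chr8:64733579-64733828, minus strand: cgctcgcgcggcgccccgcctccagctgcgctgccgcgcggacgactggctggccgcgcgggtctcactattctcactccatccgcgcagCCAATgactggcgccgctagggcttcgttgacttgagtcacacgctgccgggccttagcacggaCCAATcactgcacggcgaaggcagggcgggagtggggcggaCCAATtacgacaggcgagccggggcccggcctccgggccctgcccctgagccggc
Nsdhl, chrX:72918271-72918520, plus strand: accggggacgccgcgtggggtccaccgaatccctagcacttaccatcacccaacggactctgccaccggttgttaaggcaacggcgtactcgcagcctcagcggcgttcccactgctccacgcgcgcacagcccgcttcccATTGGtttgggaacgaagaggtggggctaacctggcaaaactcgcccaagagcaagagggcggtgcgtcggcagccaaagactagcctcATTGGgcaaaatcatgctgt
Acat2, chr17:12960726-12960975, minus strand: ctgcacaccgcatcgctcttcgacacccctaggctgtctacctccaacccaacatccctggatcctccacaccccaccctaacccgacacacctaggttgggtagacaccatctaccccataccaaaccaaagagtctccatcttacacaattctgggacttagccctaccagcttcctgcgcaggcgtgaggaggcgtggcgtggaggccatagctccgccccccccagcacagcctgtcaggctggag
Npc2, chr12:84773113-84773362, minus strand: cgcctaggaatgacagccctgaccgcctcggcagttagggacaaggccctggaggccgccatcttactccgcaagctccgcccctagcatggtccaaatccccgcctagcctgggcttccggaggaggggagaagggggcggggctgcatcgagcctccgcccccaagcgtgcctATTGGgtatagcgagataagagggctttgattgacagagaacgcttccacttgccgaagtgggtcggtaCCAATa
Lrp1, chr10:127621149-127621398, minus strand: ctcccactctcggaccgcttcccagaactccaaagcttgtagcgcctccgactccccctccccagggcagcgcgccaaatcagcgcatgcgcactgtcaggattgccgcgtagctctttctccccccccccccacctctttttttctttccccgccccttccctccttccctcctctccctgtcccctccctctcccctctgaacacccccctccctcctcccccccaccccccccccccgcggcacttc
Abca1, chr4:53159896-53160145, minus strand: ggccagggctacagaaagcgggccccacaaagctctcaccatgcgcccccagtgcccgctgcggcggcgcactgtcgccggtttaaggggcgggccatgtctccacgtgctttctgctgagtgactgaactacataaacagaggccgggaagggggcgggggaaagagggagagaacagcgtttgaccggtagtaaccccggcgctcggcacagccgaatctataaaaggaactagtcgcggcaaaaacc
The windows of Hmgcs1, Cyp51, Msmo1, Nsdhl and Npc2 hold 1 to 3 boxes each, and those of Acat2, Lrp1 and Abca1 hold none of the 3 motifs.

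Genes of the same pathways outside the group were counted from 5 lists. Of 45 listed, 43 were tested, and Rnf139 was listed at 0 in all libraries. Of the 50-base words in the coding transcripts of Rnf139, 29.3% also occur in other genes on either strand, mainly Tatdn1. Its exons overlap another gene on the same strand over 3.86% of their length. Whether the 0 of Rnf139 reflects absence or the counting is unknown. There were 23 with a log2 fold change below 0 and 20 above, with a median of −0.0083 and none at an adjusted p under 0.05. At an unadjusted p under 0.05 there were 3 (6.98%), beside 7.92% of all genes. Groups did not overlap for 1 lower gene, Acacb (2.33%, beside 8.18% of all genes), and for 3 higher genes, Me1, Cyp7b1 and Mbtps2 (6.98%, beside 6.32%). Acacb, the acetyl-CoA carboxylase that restrains mitochondrial fatty acid oxidation, was lower, with 49.4, 64.4 and 66.1 CPM in Ctrl and 39.1, 45.0 and 45.9 CPM in DTR, a log2 fold change of −0.47 (SE 0.136) and an edgeR adjusted p of 0.602.

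Me1, the malic enzyme that supplies NADPH for lipid synthesis, was higher, with 53.6, 55.4 and 55.6 CPM in Ctrl and 59.6, 69.3 and 63.5 CPM in DTR. Cyp7b1, which breaks down oxysterols, had 6.49, 1.47 and 3.48 CPM in Ctrl and 7.85, 7.15 and 9.31 CPM in DTR. The log2 fold changes were 0.22 for Me1 and 1.08 for Cyp7b1, with edgeR adjusted p-values of 0.608 and 0.623.

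By list, the 4 tested genes of SREBP processing ran from −0.09 for the protease Mbtps1 to 0.34 for its partner Mbtps2, and the 7 of the isoprenoid branch from −0.22 for Fntb to 0.24 for Pdss2. The 13 further genes of uptake and sterol transport ran from −0.28 for Stard3 to 0.26 for Gramd1c. The 8 genes of LXR signaling and oxysterols had a median of 0.23 and ran from −0.60 for Ch25h, at 5 to 41 counts, to Cyp7b1. The 11 tested fatty acid and lipid genes ran from Acacb to 0.24 for Acss2, an acetyl-CoA synthetase. All of these are log2 fold changes of DTR over Ctrl, and no member of a list passed an adjusted p of 0.05.

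Marker genes of cells that make much sterol or fat were near the floor. Summed over 7 adipocyte genes levels were 0.0644 to 1.02 CPM, and over 6 sebocyte genes 0.387 to 0.902 CPM. Macrophage genes summed to 109 to 163 CPM, T cell genes to 6.29 to 39.0, Schwann cell genes to 55.4 to 70.8, neutrophil genes to 1.34 to 7.68, keratinocyte genes to 1.16 to 4.12 and skeletal muscle genes to 6.13 to 11.8.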

How the data were processed

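RNA was from PDPN+PDGFRα+ cells sorted from MO5 tumors, 3 Ctrl and 3 DTR libraries made with a stranded low-input total RNA kit. The authors trimmed adapters with cutadapt 3.4, aligned reads to GRCm38 with STAR 2.7.3a and counted them per gene with featureCounts 2.0.1 with strand information, and deposited the raw counts. The table also holds scaled counts and the results of the authors' own comparison (fold changes, p-values, dispersions and Cook's distances), which were not used.

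Genes were kept by filterByExpr (minimum count 10, minimum total 15) and TMM scaled. DTR was compared with Ctrl by edgeR 4.0.16, glmQLFit and glmQLFTest, two-sided, without covariates, with Benjamini-Hochberg adjustment. A single value over 3 against 3 libraries cannot reach an exact permutation p below 0.1. DESeq2 1.42.0, other scalings and filters, a replicate block, an offset on genomic span and leaving out each library were run as alternatives. The code was tested on simulated data. CPM and counts at the floor cover counting error only. Coordinates, exon lengths and names of genes without one in the table came from GENCODE M21.

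The members, the lists and the tests were chosen with earlier results of these data known. In each role, levels per library are given for members at an unadjusted p under 0.05, those whose groups did not overlap, and those with the lowest and highest log2 fold change; further genes (Srebf2, Abcg1, Lrp1 and others) were described after their values were seen. Genes of other pathway lists are named when at an unadjusted p under 0.05 or at either end of their list.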

Additional observations from a re-analysis of the deposited data

How the results depend on the processing

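No member of the group passed an adjusted p of 0.05 under any of the 14 alternatives, and the lowest adjusted p there was 0.443. With RLE size factors and with DESeq2, 1 member was at an unadjusted p under 0.05 in place of 2 (beside 7.92% and 6.42% of all genes), and DESeq2 called 31 genes in all in place of 0. An offset on genomic span gave 3 such members (8.82%, beside 9.64% of all genes) and a median of −0.11 in place of −0.05, while the median of all genes moved to −0.07. The log2 fold change of Sqle turned positive with RLE size factors (0.0043), library size alone (0.025), a filter of 1 count or more in some library (0.0021), at least 10 counts in every library (0.0011) and DESeq2 (0.0040), and that of Acat2 with library size alone (0.0073). With library size alone, the groups of Hmgcs1 and Npc2 overlapped and those of Hsd17b7 did not (6.35% of all genes were then wholly lower and 7.18% wholly higher). The causes were not tested. The same-numbered libraries correlated at 0.114, 0.132 and −0.04, not all over 0.1, so the numbers were not taken to pair them, and Ctrl 3 correlated best with DTR 2. A replicate block left 0 genes called and 2 members at an unadjusted p under 0.05 (beside 8.4% of all genes), and gave Abcg1 a log2 fold change of −0.24.

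Leaving out 1 library gave 0 to 2 genes past an adjusted p of 0.05 (2 without Ctrl 1), 0 to 4 members at an unadjusted p under 0.05 (beside 5.21% to 10.2% of all genes), 3 to 16 members without overlap (16 without DTR 1, where 16.0% of all genes were wholly lower and 12.6% wholly higher) and a median from −0.12 without DTR 1 to 0.027 without DTR 3. The log2 fold changes then ran from −1.02 to 0.52 for Abcg1, −0.21 to 0.14 for Acat2, −0.071 to 0.17 for Cyp51, −0.15 to 0.0004 for Dhcr7, −0.13 to 0.088 for Fdft1, −0.30 to 0.36 for Fdps, −0.13 to 0.31 for Idi1, −0.049 to 0.11 for Insig1, −0.085 to 0.61 for Lrp1, −0.20 to 0.023 for Lss, −0.0033 to 0.21 for Msmo1, −0.39 to 0.028 for Mvd, −0.33 to 0.026 for Mvk, −0.26 to 0.094 for Pmvk, −0.20 to 0.029 for Scd1 and −0.11 to 0.12 for Sqle.

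The library pattern of the synthesis enzymes was recomputed under settings chosen after seeing the data. DTR 1 was highest for 13 of 18 with RLE size factors, 14 with library size alone and 10 with the genomic span offset, and DTR 3 lowest for 10, 10 and 12.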

Other observations

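The spread of single genes over the 6 libraries was set beside that of all genes tested in a wide range of levels. Levels were not matched inside that range. Between a mean of 10 and 1200 CPM, the median SD of log2 CPM was 0.174 for 31 members and 0.162 for 8745 genes, and it was 0.184 for the 16 synthesis enzymes in that range. Mylip, which encodes a ubiquitin ligase under LXR control, and Abca9, a transporter of the ABCA family, were chosen after their values were seen. Mylip measured 28.8, 35.4 and 35.4 CPM in Ctrl and 29.7, 39.7 and 66.0 CPM in DTR, and Abca9 9.47, 6.74 and 7.10 CPM in Ctrl and 9.31, 7.60 and 16.2 CPM in DTR. Of the 8 genes of the LXR list, 5 were highest in DTR 3 (Nr1h2, Nr1h3, Mylip, Abca9 and Cyp7b1), beside 20.8% of all genes with a count in every library, and Lpcat3 was lowest there, at 46.4 CPM.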
